A study of Mus musculus with 8 samples.

Results

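The interaction of BMP-2 with dynasore asks whether blocking dynamin changed the response of C2C12 cells to BMP-2. It is the response with dynasore (BMP-2+Dynasore minus Dynasore) minus the response with the solvent (BMP-2+DMSO minus DMSO), in log2 units, for each probe of a mouse expression array. A negative value means that BMP-2 raised a gene less, or lowered it more, when dynasore was present. The interaction was computed once with each of the 2 BMP-2+DMSO arrays, and the genes described are those whose interaction had the same sign both times. These were 4464 of 10246 tested probes (43.6%), of which 2459 were negative (24%) and 2005 positive (19.6%). The sign is what chose them, so that these counts are no finding. Among them 63 probes (0.615% of all tested) passed an adjusted p of 0.05 with each array, 22 lower (0.215%) and 41 higher (0.4%) with dynasore. The gene with the most negative interaction was Sp7, and Angptl4 had the highest positive one when each gene was ranked by the smaller of its 2 interactions. Over 8 arrays Cd82 (3.04) and Adgre5 (2.97), whose BMP-2+DMSO arrays lay far apart, stood above Angptl4 (2.75).

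C2C12 cells are myoblasts of an established mouse line, which BMP-2 diverts to the osteoblast lineage. All cells were starved of serum and received BMP-2, where given, at 30 nM for 6 h, after 2 h in 40 µM dynasore or in 0.05% DMSO, which stayed in the medium. The groups were BMP-2+Dynasore, Dynasore, BMP-2+DMSO and DMSO, each with 2 arrays that the study calls biological duplicates. No group carries a genetic change, and 1 cell line at 1 dose and 1 time point was measured. Each response to BMP-2 sets 2 arrays against 2, where an exact permutation test of a single gene could not go below p = 0.333. The interaction uses all 4 groups, and the tests below borrow the spread of all probes.

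BMPs bind paired type I and type II receptor kinases at the cell surface. The activated type I receptor phosphorylates Smad1, Smad5 and Smad8, which enter the nucleus with Smad4 and act on target genes such as the Id, Dlx and Hey families. Dynamin is the GTPase that cuts clathrin-coated pits and caveolae off the plasma membrane, and dynasore inhibits it, so that receptors reach endosomes less readily. In C2C12 cells the early Smad targets precede bone genes such as Sp7 and Alpl, while muscle genes are held down.

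The deposited intensities were background-subtracted, and the 2 BMP-2+DMSO arrays differed more than any other duplicates. On replicate 2 of BMP-2+DMSO the mode of the dim probes lay at 241.77 intensity units, against 45.24 on BMP-2+Dynasore replicate 2 and -1.21 to 14.21 on the other 6 arrays. It had 7430 of 18138 probes above background, and the other arrays had 8874 to 9467. Its log2 values correlated at r = 0.739 to 0.803 with those of the other arrays, across probes, while all other pairs of arrays lay at 0.93 to 0.995. Single genes were far apart there: Vim, a mesenchymal intermediate filament and myoblast marker, stood at 5.92 on BMP-2+DMSO replicate 2, at 13.22 on BMP-2+Dynasore replicate 2 and above 14 elsewhere. For this reason each interaction is given with either array. An adjusted p given with either array leaves out the distance between the BMP-2+DMSO duplicates. The summed intensity of the 7 tested myoblast markers of 11 listed was 30451 and 16191 with BMP-2+Dynasore and 36572 and 33256 with Dynasore, against 37566 and 14921 with BMP-2+DMSO and 36049 and 41101 with DMSO. Vim belongs to these markers, and its low values on replicate 2 of BMP-2+Dynasore and of BMP-2+DMSO lower the sums of 16191 and 14921. Those sums therefore do not stand for the markers as a set. Myf5, Pax7 and Cav3 were on the array but not above background on 2 arrays. In such whole-culture RNA, fewer cells of a type and less RNA per cell cannot be told apart.

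With all 8 arrays in 1 limma fit, in which the distance between the BMP-2+DMSO duplicates counts as error, no interaction passed the threshold (0 of 10246, 0%). At an unadjusted p under 0.05 there were 227 probes (2.22%). Moderation without a mean trend or robust weighting also called 0 (209 unadjusted), and an ordinary linear model called 1, Rplp1, a ribosomal protein gene (368 unadjusted). With 7 arrays, the fit that keeps BMP-2+DMSO replicate 1 called 75 higher (0.732%) and 34 lower (0.332%). The fit that keeps replicate 2 called 2378 higher (23.2%) and 3372 lower (32.9%). The 63 probes called both times are thus those called whichever BMP-2+DMSO array was kept, but the fits share 6 arrays and are not independent of each other. Without 1 of the Dynasore or DMSO arrays 14 to 17 probes were called, whereas 358 were called without BMP-2+Dynasore replicate 1 and 147 without BMP-2+Dynasore replicate 2. Of the 63, 13 were called under at least 12 of 15 alternative settings and 23 under 7 or fewer. Around the threshold, Pdlim3, Pald1 and Crabp2 lay just inside (larger adjusted p of the 7-array fits 0.0472 to 0.0479) and Sdc2, Nid2 and Cebpb just outside (0.0518 to 0.053).

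**Figure D1:**
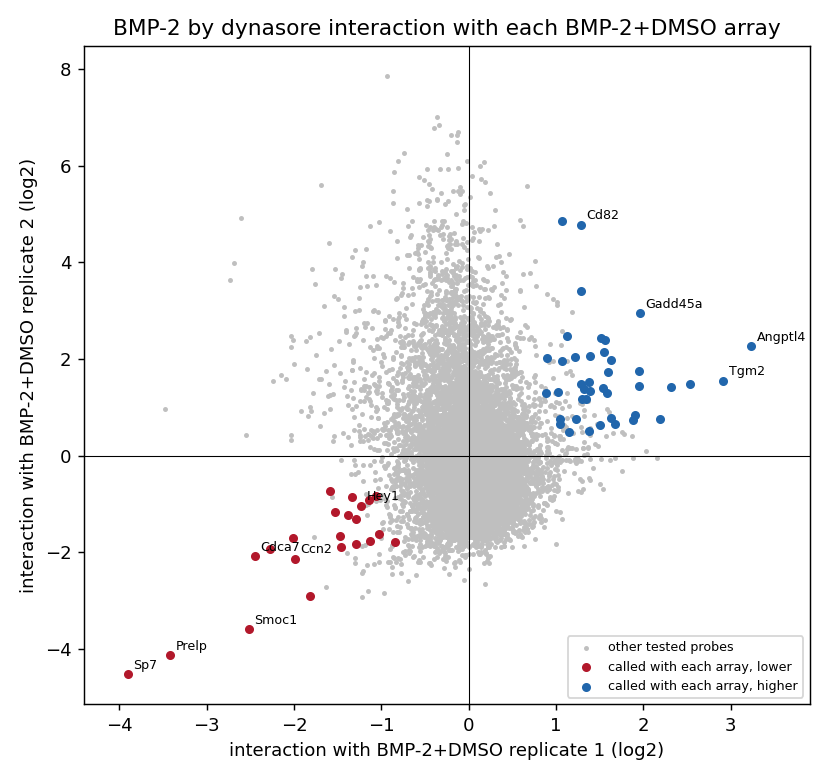
Interaction of BMP-2 with dynasore (log2) for 10246 tested probes, with BMP-2+DMSO replicate 1 on the horizontal axis and replicate 2 on the vertical axis. The 22 red and 41 blue probes passed the threshold with each array, and the cloud is taller than it is wide as values with replicate 2 spread more.

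Promoters of 5 BMP-responsive genes are shown because they span the range of interactions, with Prelp and Dlx1 among the probes called lower with each array, Dlx2 short of the threshold with replicate 1, and Id2 and Id3 with small interactions. Each line holds the 250 bases upstream of the RefSeq transcription start in build GRCm38.p6, read 5′ to 3′ on the gene's strand. Capitals mark GGCGCC, a GC-rich palindrome known to be bound by Smad1 and Smad5, and GGAGCC, a related site that appears as GGCTCC when read on the opposite strand. The palindrome GTCTAGAC of the Smad binding element was searched as well and is in none of these windows, and the marked matches do not overlap.
Prelp (chr1:133921402-133921651, minus strand): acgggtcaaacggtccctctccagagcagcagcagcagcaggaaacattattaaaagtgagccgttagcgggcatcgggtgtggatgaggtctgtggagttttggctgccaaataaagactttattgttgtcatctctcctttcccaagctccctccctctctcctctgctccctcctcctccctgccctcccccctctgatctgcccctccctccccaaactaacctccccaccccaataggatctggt
Dlx1 (chr2:71529195-71529444, plus strand): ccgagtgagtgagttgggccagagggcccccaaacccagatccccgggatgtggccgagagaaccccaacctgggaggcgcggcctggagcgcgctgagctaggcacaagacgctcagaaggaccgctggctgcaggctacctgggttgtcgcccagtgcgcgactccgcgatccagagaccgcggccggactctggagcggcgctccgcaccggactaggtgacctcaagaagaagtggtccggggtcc
Dlx2 (chr2:71546755-71547004, minus strand): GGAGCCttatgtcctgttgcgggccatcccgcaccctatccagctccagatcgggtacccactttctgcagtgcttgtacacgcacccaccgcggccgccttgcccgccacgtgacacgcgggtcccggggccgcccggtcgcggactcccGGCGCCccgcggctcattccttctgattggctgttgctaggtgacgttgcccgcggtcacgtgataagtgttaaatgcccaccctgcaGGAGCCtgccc
Id2 (chr12:25096093-25096342, minus strand): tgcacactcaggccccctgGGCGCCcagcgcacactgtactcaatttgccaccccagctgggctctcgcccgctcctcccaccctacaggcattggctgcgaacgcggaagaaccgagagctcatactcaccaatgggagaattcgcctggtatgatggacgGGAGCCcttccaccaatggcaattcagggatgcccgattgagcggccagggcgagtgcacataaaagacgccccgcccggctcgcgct
Id3 (chr4:136143572-136143821, plus strand): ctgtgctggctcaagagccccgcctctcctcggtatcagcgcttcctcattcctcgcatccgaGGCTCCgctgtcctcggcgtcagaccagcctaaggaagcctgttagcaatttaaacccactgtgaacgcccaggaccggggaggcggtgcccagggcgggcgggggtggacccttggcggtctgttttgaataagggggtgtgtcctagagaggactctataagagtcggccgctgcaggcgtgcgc

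Dlx2 and Id2 hold GGCGCC once each, Id3 holds only the GGAGCC site, and Prelp and Dlx1 hold none of these letters. Over all 32851 such windows of the mouse table, 9.59% held GGCGCC, 26% held GGAGCC on either strand and 0.167% held GTCTAGAC. Of the 21 named genes called lower, 11 had a window. Their 18 windows held GGCGCC in 2 cases (11.1%), GGAGCC in 5 (27.8%) and GTCTAGAC in 0. For the genes called higher, 23 of 35 had a window, and GGCGCC stood in 5 of 32 windows (15.6%), GGAGCC in 15 (46.9%) and GTCTAGAC in 0. A match in so short a stretch is a description of the letters and says nothing of binding.

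The negative interactions were reduced rises. Of the 22 probes, 20 rose with BMP-2 in DMSO on both arrays and had a smaller value above 0 with dynasore, and 2, those of Sgk1 and Pik3r3, lay below 0 with dynasore. Their median response was 0.34 with dynasore and 2.29 with DMSO. Prelp, Smoc1, Cdca7, Foxq1 and Ccn2 had responses of 0.68 or less with dynasore, none of which passed the threshold, while Hey1 and Avpr1a had 3.09 and 2.18.

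Sp7, also called osterix, encodes the zinc finger factor required for osteoblast differentiation. It measured 5.71 and 5.92 with BMP-2+Dynasore and 5.77 and 5.53 with Dynasore, against 9.87 and 10.50 with BMP-2+DMSO and 5.53 and 6.07 with DMSO (log2 intensity, replicates 1 and 2). Only the BMP-2+DMSO arrays were above background, so that the rise in DMSO was at least 17.2-fold and no fold can be given with dynasore. The interaction was -3.90 with BMP-2+DMSO replicate 1 (adjusted p = 5.1e-04) and -4.53 with replicate 2 (adjusted p = 2.7e-06), and -4.22 (95% interval -5.38 to -3.05) over 8 arrays. With values under background raised to the background limit it was -4.11. Intervals over 8 arrays, here and below, are not adjusted for the number of probes tested. The limma fit of 8 arrays gave Sp7 an adjusted p of 0.53.

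Prelp, a small leucine-rich proteoglycan of connective tissue matrix, was above background on all arrays. Its values were 6.91 and 7.27 with BMP-2+Dynasore and 6.35 and 6.47 with Dynasore, against 12.60 and 13.32 with BMP-2+DMSO and 8.56 and 8.45 with DMSO. All BMP-2+DMSO values lay far above the rest, and both dynasore groups lay below DMSO. The ratio of BMP-2+Dynasore to Dynasore was 1.6, against 21.9 for BMP-2+DMSO to DMSO. The interaction was -3.42 with BMP-2+DMSO replicate 1 (adjusted p = 2.4e-04) and -4.14 with replicate 2 (adjusted p = 6.9e-07), and -3.78 (95% interval -4.87 to -2.69) over 8 arrays. The baseline difference of Dynasore from DMSO, -2.09, enters the interaction with its sign turned and made it less negative.

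Smoc1, a secreted calcium-binding matrix protein known as a BMP antagonist from Xenopus, gave 5.73 and 6.08 with BMP-2+Dynasore and 5.15 and 5.35 with Dynasore, against 8.59 and 9.67 with BMP-2+DMSO and 5.75 and 5.08 with DMSO. It was above background on both BMP-2+DMSO arrays and on 1 BMP-2+Dynasore array, a rise of at least 8.25-fold with DMSO. Its interaction was -2.52 with BMP-2+DMSO replicate 1 (adjusted p = 0.016) and -3.60 with replicate 2 (adjusted p = 3.9e-05). Stanniocalcin 2 (Stc2), a secreted glycoprotein induced by cell stress, had 7.88 and 7.88 with BMP-2+Dynasore and 7.70 and 7.67 with Dynasore, against 8.35 and 9.44 with BMP-2+DMSO and 6.56 and 6.12 with DMSO. Here Dynasore alone lay 1.35 above DMSO, and BMP-2+Dynasore lay 0.19 above Dynasore. The interaction of Stc2 was -1.82 with BMP-2+DMSO replicate 1 (adjusted p = 0.016) and -2.91 with replicate 2 (adjusted p = 1.9e-05).

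Cdca7, a cell cycle-associated nuclear protein, Foxq1, a forkhead transcription factor, and Ccn2, the connective tissue growth factor that TGF-β and YAP induce, had similar patterns. Cdca7 had 8.72 and 8.75 with BMP-2+Dynasore and 8.42 and 8.50 with Dynasore, against 11.87 and 11.51 with BMP-2+DMSO and 9.16 and 9.15 with DMSO. Foxq1 stood at 10.50 and 10.33 with BMP-2+Dynasore and 10.12 and 10.05 with Dynasore, against 12.38 and 12.04 with BMP-2+DMSO and 9.69 and 9.87 with DMSO. In Ccn2 the values were 8.71 and 9.12 with BMP-2+Dynasore and 8.39 and 8.43 with Dynasore, against 12.64 and 12.79 with BMP-2+DMSO and 10.12 and 10.19 with DMSO. Within each gene the 2 BMP-2+DMSO arrays were less than 0.4 apart although these arrays differed widely elsewhere. The ratios of BMP-2+Dynasore to Dynasore were 1.21 for Cdca7, 1.25 for Foxq1 and 1.42 for Ccn2, against 5.82, 5.39 and 5.91 for BMP-2+DMSO to DMSO. The interaction of Cdca7 was -2.44 with BMP-2+DMSO replicate 1 (adjusted p = 2.4e-04) and -2.09 with replicate 2 (adjusted p = 1.2e-05). For Foxq1 it was -2.28 with BMP-2+DMSO replicate 1 (adjusted p = 4.0e-04) and -1.94 with replicate 2 (adjusted p = 1.9e-05). For Ccn2 it was -1.99 with BMP-2+DMSO replicate 1 (adjusted p = 0.0036) and -2.13 with replicate 2 (adjusted p = 4.0e-05), and its Dynasore level was -1.74 relative to DMSO, the baseline as well as the rise being lower.

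**Figure D2:**
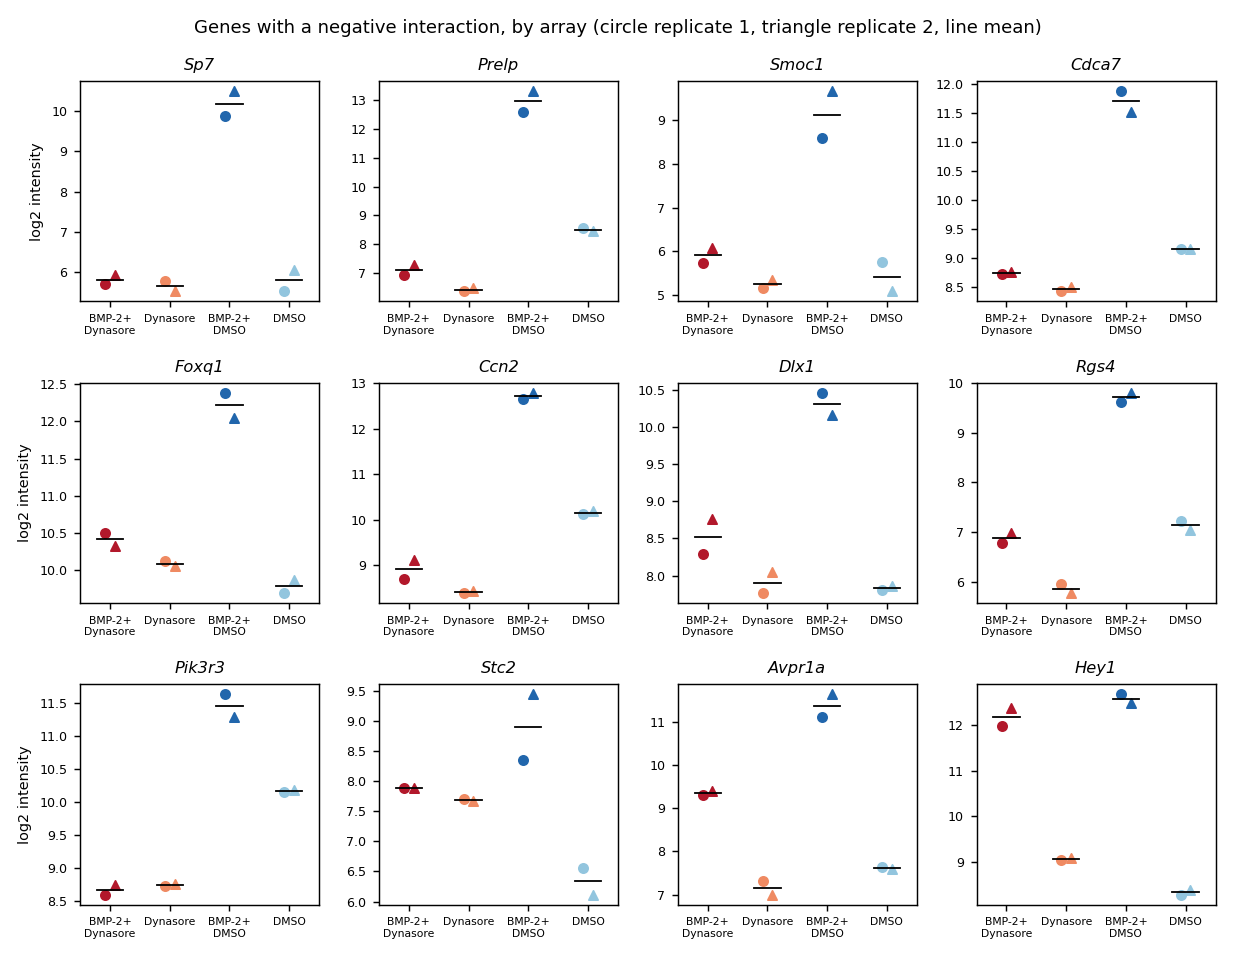
Log2 intensity of 12 genes with a negative interaction on each of the 8 arrays, by group, with circles for replicate 1, triangles for replicate 2 and a line for the mean. In Sp7, Prelp, Cdca7 and Foxq1 the BMP-2+DMSO group stands far above the others, whereas Hey1 and Avpr1a are raised by BMP-2 with dynasore as well.

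Among the signalling genes, Rgs4, which shortens signals from G protein-coupled receptors, had 6.77 and 6.97 with BMP-2+Dynasore and 5.95 and 5.77 with Dynasore, against 9.62 and 9.81 with BMP-2+DMSO and 7.23 and 7.05 with DMSO. Dynasore was below background on both arrays, so its rise with dynasore was at least 1.74-fold, against 5.96-fold with DMSO, and the interaction was -1.47 with BMP-2+DMSO replicate 1 (adjusted p = 0.033) and -1.66 with replicate 2 (adjusted p = 7.2e-04). On the authors' values the Rgs4 interaction was -0.67 over 8 arrays, and the larger adjusted p of the limma fits with 7 arrays was 0.711, or 0.0645 with arrays scaled to equal medians. Avpr1a, a vasopressin receptor, measured 9.30 and 9.39 with BMP-2+Dynasore and 7.32 and 7.003 with Dynasore, against 11.10 and 11.63 with BMP-2+DMSO and 7.65 and 7.59 with DMSO. It rose 4.54-fold with dynasore (adjusted p = 6.5e-05 in the 7-array fit with BMP-2+DMSO replicate 1, 0.32 over 8 arrays) and 13.4-fold with DMSO. Avpr1a is therefore a reduced but present response, with an interaction of -1.29 with BMP-2+DMSO replicate 1 (adjusted p = 0.033) and -1.83 with replicate 2 (adjusted p = 1.5e-04). The calls of Rgs4 and Avpr1a were made under 5 and 6 of 15 alternative settings.

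Pik3r3, a regulatory subunit of phosphatidylinositol 3-kinase, showed 8.60 and 8.75 with BMP-2+Dynasore and 8.73 and 8.76 with Dynasore, against 11.62 and 11.28 with BMP-2+DMSO and 10.16 and 10.19 with DMSO. Sgk1, a kinase downstream of that enzyme, showed 12.98 and 13.09 with BMP-2+Dynasore and 13.46 and 13.41 with Dynasore, against 13.02 and 13.67 with BMP-2+DMSO and 12.24 and 12.36 with DMSO. The values with dynasore lay below baseline after BMP-2 on both arrays of Sgk1, and in Pik3r3 they lay within the spread of the Dynasore arrays or below them. Interactions were -1.53 and -1.18 for Pik3r3 (adjusted p = 0.0054 and 6.3e-04) and -1.13 and -1.77 for Sgk1 (adjusted p = 0.0085 and 5.9e-06) with replicates 1 and 2 of BMP-2+DMSO. Dok4, a docking protein of receptor tyrosine kinases, and Vegfc, a growth factor for lymphatic vessels, had interactions of -1.46 and -1.89 and of -1.29 and -1.31, with responses of 0.09 and 0.42 with dynasore.

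Krt14, a keratin of basal epidermis, was called lower with each array (-1.03 and -1.62, adjusted p = 0.017 and 2.2e-05). It measured 11.02 and 11.07 with BMP-2+Dynasore and 10.20 and 10.21 with Dynasore, against 13.04 and 13.62 with BMP-2+DMSO and 11.21 and 11.13 with DMSO. The summed intensity of the 4 keratinocyte markers tested of 9 listed (Krt8, Krt10, Krt14, Krt16) was 3073 and 3618 with BMP-2+Dynasore and 1810 and 1830 with Dynasore, against 9904 and 15225 with BMP-2+DMSO and 3255 and 3050 with DMSO. Krt14 made up most of each of these sums, which therefore do not stand for the markers as a set. Krt5, Krt18, Ivl and Cdh1 were on the array but not above background on 2 arrays. The part of such cells in the result was not tested. The other genes called lower were Irx5, an Iroquois homeobox factor (-1.59 and -0.73 with replicates 1 and 2), Csrp2, a LIM domain protein (-0.85 and -1.79), Slc6a8, the creatine transporter (-1.06 and -0.85), Aaas, a nuclear pore component (-1.15 and -0.93), and Cemip2 (-1.34 and -0.85). A last probe carried no gene symbol.

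The BMP target list gave a mixed picture, in which several classical targets rose with dynasore as well. Of 24 tested genes of the list, 12 had the same sign with both arrays, 8 negative and 4 positive. Dlx1 and Hey1 were called lower with each array and 0 were called higher. The list's median interaction was -0.46 with replicate 1 and 0.17 with replicate 2, beside 0.02 and -0.19 over all tested probes. In the responses themselves, 9 of the 24 were called higher by BMP-2 in DMSO with each array (140 of 10246 over all, 1.37%). With dynasore 7 were called higher in the 7-array fit with replicate 1 (66 over all, 0.644%), and 6 were in both: Atoh8, Dlx2, Hey1, Id1, Id2 and Id3. Dlx1, Dlx3 and Tbx3 were called with DMSO alone and Smad6 with dynasore alone, which is not a test of a difference. Smad6, an inhibitory Smad, stood at 11.07 and 6.93 on the BMP-2+DMSO arrays.

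Hey1, a basic helix-loop-helix repressor of the Notch and BMP pathways, had 11.97 and 12.35 with BMP-2+Dynasore and 9.05 and 9.08 with Dynasore, against 12.66 and 12.48 with BMP-2+DMSO and 8.29 and 8.39 with DMSO. The levels after BMP-2 lay close to each other, below 0.7 log2 units apart on any arrays, and the baseline was 0.73 higher with Dynasore than with DMSO. It rose 8.54-fold with dynasore (adjusted p = 0.014 over 8 arrays) and 18.8-fold with DMSO (adjusted p = 0.0035). Its interaction was -1.23 with BMP-2+DMSO replicate 1 (adjusted p = 0.03) and -1.04 with replicate 2 (adjusted p = 0.0027), and -1.14 (95% interval -1.85 to -0.42) over 8 arrays.

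The 2 Dlx neighbours on chromosome 2, homeobox factors of the Distal-less family, both had smaller responses with dynasore. Dlx1 measured 8.28 and 8.76 with BMP-2+Dynasore and 7.76 and 8.04 with Dynasore, against 10.46 and 10.16 with BMP-2+DMSO and 7.80 and 7.86 with DMSO. Its interaction was -2.02 with BMP-2+DMSO replicate 1 (adjusted p = 0.011) and -1.72 with replicate 2 (adjusted p = 7.7e-04). Dlx2 measured 9.13 and 9.63 with BMP-2+Dynasore and 6.78 and 7.06 with Dynasore, against 10.11 and 10.74 with BMP-2+DMSO and 6.30 and 6.23 with DMSO. It rose 5.49-fold with dynasore, against 17.9-fold with DMSO, yet its interaction of -1.39 with BMP-2+DMSO replicate 1 (adjusted p = 0.064) and -2.02 with replicate 2 (adjusted p = 4.0e-04) missed the threshold with replicate 1. Dlx3 had 12.11 and 12.33 with BMP-2+Dynasore and 11.70 and 11.70 with Dynasore, against 11.54 and 11.82 with BMP-2+DMSO and 10.59 and 10.57 with DMSO. Dlx3 was thus highest with both agents together, with Dynasore alone 1.12 above DMSO, and its interaction was -0.44 with BMP-2+DMSO replicate 1 (adjusted p = 0.38) and -0.72 with replicate 2 (adjusted p = 0.0053).

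The Id genes encode helix-loop-helix proteins that block differentiation factors such as MyoD. Id1 showed 9.84 and 9.71 with BMP-2+Dynasore and 7.50 and 7.38 with Dynasore, against 11.20 and 10.31 with BMP-2+DMSO and 8.24 and 8.17 with DMSO. Both levels were lower with dynasore, before and after BMP-2, and the rise was 5.04-fold with dynasore and 5.86-fold with DMSO. Its interaction changed sign with the array, -0.67 with replicate 1 and 0.23 with replicate 2 (adjusted p = 0.22 and 0.39), so Id1 is not among the genes chosen. Id2 had 8.45 and 8.56 with BMP-2+Dynasore and 6.77 and 7.08 with Dynasore, against 8.55 and 8.34 with BMP-2+DMSO and 6.09 and 6.30 with DMSO. Levels of Id2 after BMP-2 overlapped between the conditions, and its interaction was -0.77 with BMP-2+DMSO replicate 1 (adjusted p = 0.32) and -0.57 with replicate 2 (adjusted p = 0.11). Id3 had 11.35 and 11.29 with BMP-2+Dynasore and 8.40 and 8.46 with Dynasore, against 11.86 and 11.85 with BMP-2+DMSO and 8.36 and 8.50 with DMSO. It was the steadiest of the 3, with a rise of 7.42-fold with dynasore (adjusted p = 0.014 over 8 arrays) and 10.8-fold with DMSO (adjusted p = 0.0039). Baselines of Id3 overlapped, and the interaction was -0.54 with BMP-2+DMSO replicate 1 (adjusted p = 0.3) and -0.54 with replicate 2 (adjusted p = 0.032). Over 8 arrays the intervals of the Id interactions were -0.22 (95% interval -1.35 to 0.91) for Id1, -0.67 (95% interval -1.65 to 0.31) for Id2 and -0.54 (95% interval -1.19 to 0.11) for Id3, so that reductions of more than 1 log2 unit lie within each.

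**Figure D3:**
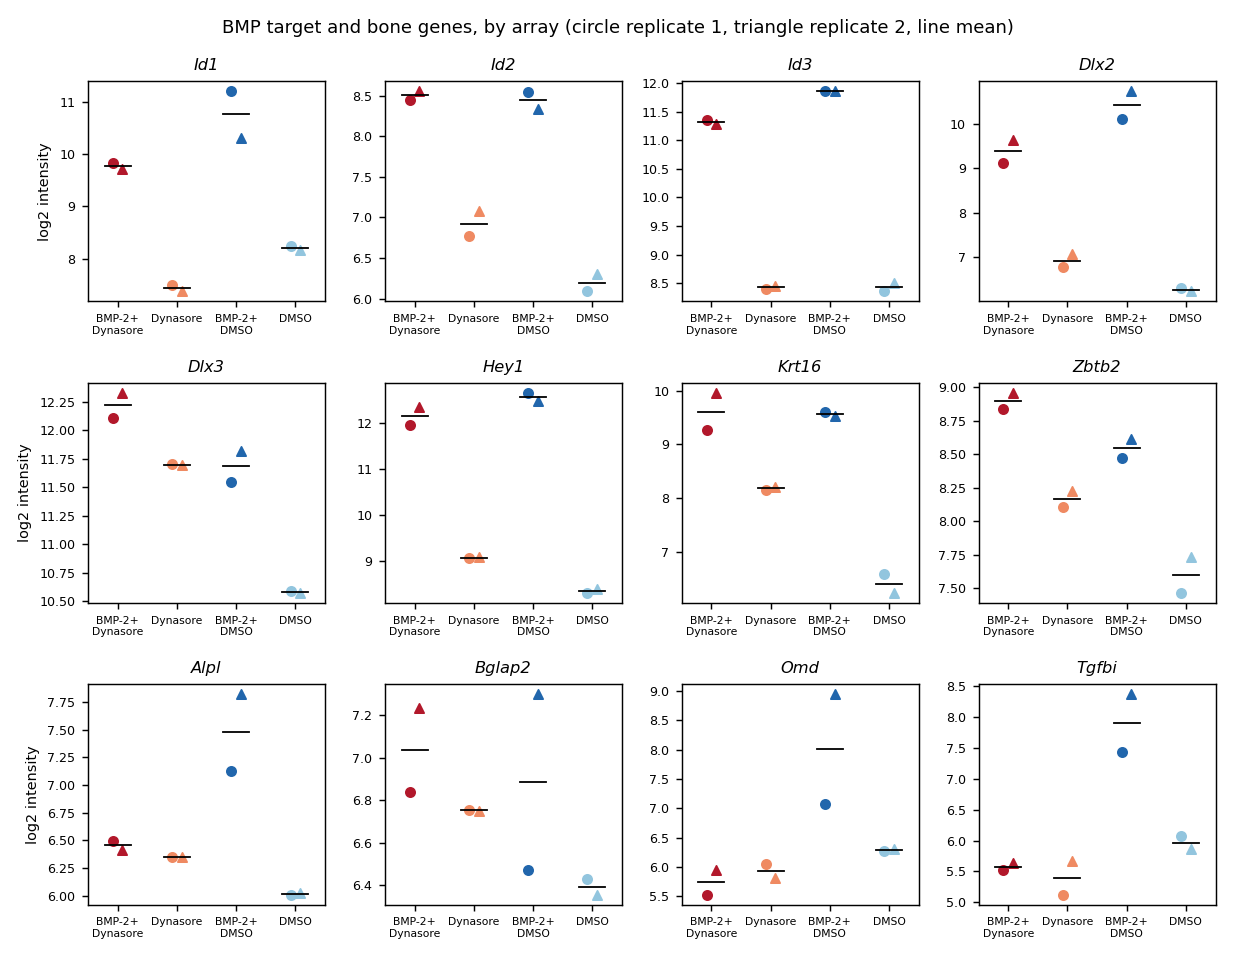
Log2 intensity of BMP target, keratin and bone genes on each of the 8 arrays, by group, with circles for replicate 1, triangles for replicate 2 and a line for the mean. Id1, Id3, Dlx2 and Hey1 rise with BMP-2 under both conditions, and the 2 BMP-2+DMSO arrays lie apart in Bglap2 and Omd.

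Krt16, a keratin of stressed epidermis, and Zbtb2, a zinc finger factor, stood higher with Dynasore alone than with DMSO, without overlap of the arrays. Krt16 measured 9.26 and 9.96 with BMP-2+Dynasore and 8.15 and 8.20 with Dynasore, against 9.60 and 9.52 with BMP-2+DMSO and 6.58 and 6.23 with DMSO. Its levels after BMP-2 overlapped, while its baseline was 1.77 higher with Dynasore, and BMP-2 raised it 2.7-fold with dynasore and 8.92-fold with DMSO. The interaction of Krt16 was -1.77 with BMP-2+DMSO replicate 1 (adjusted p = 0.061) and -1.68 with replicate 2 (adjusted p = 0.0036). Zbtb2 had 8.84 and 8.96 with BMP-2+Dynasore and 8.11 and 8.22 with Dynasore, against 8.47 and 8.61 with BMP-2+DMSO and 7.46 and 7.73 with DMSO, and an interaction of -0.14 with BMP-2+DMSO replicate 1 (adjusted p = 0.87) and -0.28 with replicate 2 (adjusted p = 0.35), which lay above 0 when arrays were scaled to equal medians (0.28).

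Of 11 tested osteoblast genes, 7 had the same sign with both arrays, 6 of them negative, and Sp7 was the single call. The median was -0.39 with replicate 1 and -1.37 with replicate 2, beside 0.02 and -0.19 over all tested probes. Of all tested probes 43.6% had the same sign, 24% negative and 19.6% positive. These values over all probes also stand beside the lists that follow. Alpl, the tissue-nonspecific alkaline phosphatase, had 6.50 and 6.41 with BMP-2+Dynasore and 6.35 and 6.35 with Dynasore, against 7.13 and 7.82 with BMP-2+DMSO and 6.01 and 6.02 with DMSO. BMP-2+DMSO was above the other groups on both arrays, but the interaction was -1.01 with BMP-2+DMSO replicate 1 (adjusted p = 0.13) and -1.70 with replicate 2 (adjusted p = 4.9e-04). Osteomodulin (Omd), a proteoglycan of mineralized matrix, had 5.53 and 5.95 with BMP-2+Dynasore and 6.06 and 5.82 with Dynasore, against 7.07 and 8.94 with BMP-2+DMSO and 6.28 and 6.31 with DMSO. Most of its interaction came with replicate 2, with -0.97 with BMP-2+DMSO replicate 1 (adjusted p = 0.26) and -2.84 with replicate 2 (adjusted p = 4.5e-05). The osteocalcin gene Bglap2 had 6.84 and 7.24 with BMP-2+Dynasore and 6.76 and 6.75 with Dynasore, against 6.47 and 7.30 with BMP-2+DMSO and 6.43 and 6.36 with DMSO, and no settled sign (0.20 and -0.62). Mepe, a matrix phosphoglycoprotein, was above background with BMP-2+DMSO only.

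The small leucine-rich proteoglycans had 5 tested genes of 13 listed, and 4 had a negative interaction with both arrays: Prelp, Omd, Ogn and Bgn, with Prelp the single call. Ogn, osteoglycin, stood at 9.44 and 9.43 with BMP-2+Dynasore and 9.45 and 10.004 with Dynasore, against 12.003 and 12.26 with BMP-2+DMSO and 11.56 and 11.84 with DMSO. Dynasore differed from DMSO by -1.97, more than the interaction (-0.60 and -0.85 with replicates 1 and 2). Among 22 tested BMP receptors, ligands and Smads, 10 had the same sign (6 negative, 4 positive) and 0 were called in either direction with each array. Values were -0.55 and -0.44 for the type I receptor gene Acvr1, 0.59 and 0.45 for the TGF-β receptor gene Tgfbr2 and 1.23 and 0.13 for the ligand gene Bmp4. Skil, a Smad co-repressor, had -0.23 and -1.95, with BMP-2+DMSO arrays at 10.04 and 11.76.

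The positive interactions were falls that were reduced or gone. Of the 41 probes, all had responses to BMP-2 in DMSO below 0 with both arrays. With dynasore 27 still had a mean below 0 and 14 lay above it, and their median response was -0.16 with dynasore and -1.47 with DMSO. In 34 of the 41 the Dynasore mean lay below DMSO, in 33 without overlap of the arrays (3741 of the 10246 tested), with a median difference of -1.15. That baseline difference enters the interaction with its sign turned and is not independent of the choice. In those 34, dynasore alone and BMP-2 alone each lay below DMSO, and the difference with both agents was smaller than the sum.

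Angptl4, a secreted inhibitor of lipoprotein lipase, measured 8.999 and 9.39 with BMP-2+Dynasore and 9.37 and 9.45 with Dynasore, against 7.77 and 8.75 with BMP-2+DMSO and 11.26 and 11.18 with DMSO. It was 7.79-fold lower with BMP-2+DMSO than with DMSO, while BMP-2+Dynasore and Dynasore differed by -0.21 log2 units. The interaction was 3.23 with BMP-2+DMSO replicate 1 (adjusted p = 2.1e-04) and 2.26 with replicate 2 (adjusted p = 2.3e-05), and 2.75 (95% interval 1.55 to 3.95) over 8 arrays. In 7 of the 41 probes the Dynasore mean lay above DMSO, by 3.16 for Ndrg1, 1.61 for Cilk1, 0.95 for Rbm38, 0.83 for Gadd45a, 0.82 for Lhfpl2, 0.37 for Ets2 and 0.21 for a probe with no gene symbol. Gadd45a is a growth arrest and DNA damage gene. It stood at 12.54 and 12.43 with BMP-2+Dynasore and 12.93 and 12.90 with Dynasore, against 9.70 and 8.71 with BMP-2+DMSO and 11.96 and 12.21 with DMSO. Dynasore lay above DMSO by 0.83, and the 7.38-fold fall with BMP-2 in DMSO had a counterpart of -0.43 log2 units with dynasore. The interaction of Gadd45a was 1.96 with BMP-2+DMSO replicate 1 (adjusted p = 5.6e-04) and 2.95 with replicate 2 (adjusted p = 5.0e-07), and 2.45 (95% interval 1.37 to 3.54) over 8 arrays.

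Tgm2, tissue transglutaminase, and Cxcl12, the chemokine SDF-1, were at their lowest with dynasore. Tgm2 gave 6.52 and 6.51 with BMP-2+Dynasore and 6.36 and 6.69 with Dynasore, against 7.57 and 8.94 with BMP-2+DMSO and 10.51 and 10.50 with DMSO. Cxcl12 gave 6.63 and 6.68 with BMP-2+Dynasore and 6.94 and 7.02 with Dynasore, against 7.66 and 8.55 with BMP-2+DMSO and 10.27 and 10.32 with DMSO. Dynasore alone had taken them -3.97 and -3.31 from DMSO, further than BMP-2 alone did. On the dynasore arrays the background limit lay at 6.05 to 6.1, so that little room was left for a further fall, least in Tgm2. The part of this in the interactions was not tested. The interaction of Tgm2 was 2.92 with BMP-2+DMSO replicate 1 (adjusted p = 5.1e-04) and 1.55 with replicate 2 (adjusted p = 6.8e-04). That of Cxcl12 was 2.31 with BMP-2+DMSO replicate 1 (adjusted p = 0.0011) and 1.42 with replicate 2 (adjusted p = 5.9e-04).

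Ankrd1, a muscle ankyrin repeat protein and YAP target, had 10.22 and 10.18 with BMP-2+Dynasore and 9.69 and 9.64 with Dynasore, against 9.57 and 10.61 with BMP-2+DMSO and 11.54 and 11.58 with DMSO. BMP-2 arrays lay above Dynasore and below DMSO, in opposite directions without overlap. Its interaction was 2.53 with BMP-2+DMSO replicate 1 (adjusted p = 2.1e-04) and 1.49 with replicate 2 (adjusted p = 5.7e-05). Ccn2, of the same list of TGF-β and YAP targets, had the opposite sign. In that list 8 of 17 tested genes had the same sign, 2 negative and 6 positive, and 1 was called in each direction. Tgfbi, a TGF-β-induced matrix protein, was the other negative one, with -1.30 with BMP-2+DMSO replicate 1 (adjusted p = 0.15) and -2.23 with replicate 2 (adjusted p = 5.5e-04), and was above background on both BMP-2+DMSO arrays and 1 DMSO array. Ccn4, a Wnt-induced relative of Ccn2, had 1.30 with BMP-2+DMSO replicate 1 (adjusted p = 0.016) and 0.50 with replicate 2 (adjusted p = 0.057).

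**Figure D4:**
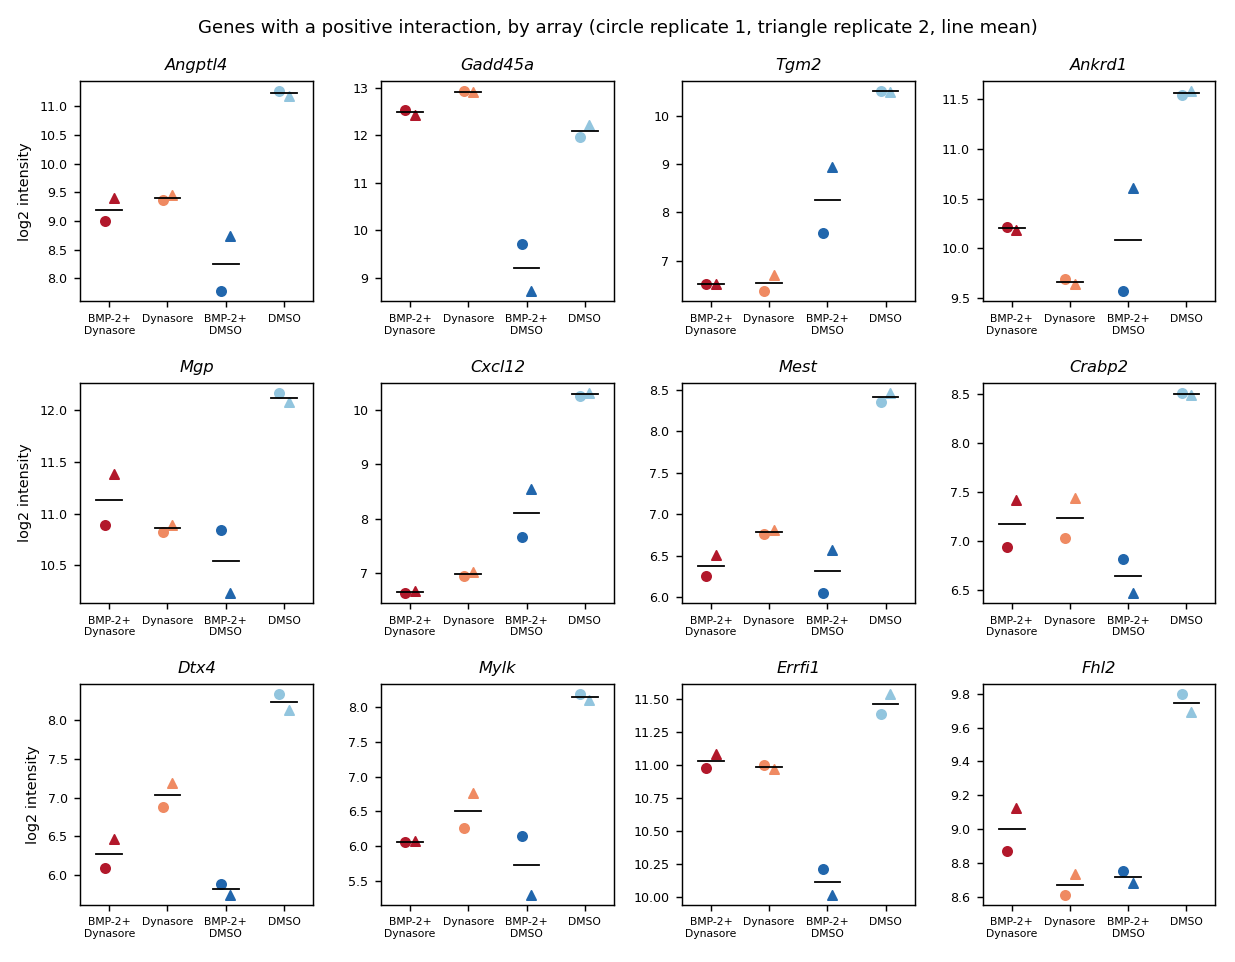
Log2 intensity of 12 genes with a positive interaction on each of the 8 arrays, by group, with circles for replicate 1, triangles for replicate 2 and a line for the mean. DMSO is the highest group in all but Gadd45a, and the distance between BMP-2+DMSO and DMSO exceeds that between BMP-2+Dynasore and Dynasore in every panel.

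Matrix Gla protein (Mgp), an inhibitor of calcification, had 10.89 and 11.38 with BMP-2+Dynasore and 10.83 and 10.89 with Dynasore, against 10.84 and 10.24 with BMP-2+DMSO and 12.16 and 12.07 with DMSO. The imprinted gene Mest had 6.26 and 6.51 with BMP-2+Dynasore and 6.76 and 6.81 with Dynasore, against 6.05 and 6.57 with BMP-2+DMSO and 8.35 and 8.47 with DMSO. Errfi1, a feedback inhibitor of the EGF receptor, had 10.97 and 11.08 with BMP-2+Dynasore and 10.996 and 10.97 with Dynasore, against 10.21 and 10.02 with BMP-2+DMSO and 11.38 and 11.53 with DMSO. In each of the 3 genes BMP-2+DMSO lay below DMSO on both arrays, and in Errfi1 the dynasore groups were within 0.2 of each other. Interactions were 1.54 with BMP-2+DMSO replicate 1 (adjusted p = 0.016) and 2.15 with replicate 2 (adjusted p = 5.1e-05) for Mgp, 1.95 and 1.43 for Mest (adjusted p = 0.0085 and 0.0014) and 1.29 and 1.49 for Errfi1 (adjusted p = 0.0085 and 6.9e-05). Mest was below background on both BMP-2+DMSO arrays and was at least 4.18-fold lower there than with DMSO.

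Several of the positive genes were low. Dtx4, a Deltex ubiquitin ligase of the Notch pathway, and Ppl, the desmosomal plakin periplakin, were below background on both BMP-2+DMSO arrays, and were at least 3.71-fold and 2.8-fold lower there than with DMSO. Dtx4 had an interaction of 1.60 with BMP-2+DMSO replicate 1 (adjusted p = 0.041) and 1.73 with replicate 2 (adjusted p = 0.0011), and with values under background raised to the limit 1.13 over 8 arrays in place of 1.66. Ppl had 1.58 and 1.30. Mylk, the myosin light chain kinase, was below background on both BMP-2+Dynasore arrays and 1 BMP-2+DMSO array, with an interaction of 1.56 and 2.40 and, so raised, 1.32 over 8 arrays. Crabp2, a retinoic acid carrier, had 6.93 and 7.42 with BMP-2+Dynasore and 7.03 and 7.44 with Dynasore, against 6.81 and 6.47 with BMP-2+DMSO and 8.51 and 8.48 with DMSO, and an interaction of 1.63 with BMP-2+DMSO replicate 1 (adjusted p = 0.048) and 1.97 with replicate 2 (adjusted p = 7.4e-04). Dtx4, Ppl and Crabp2 were called under 5 of 15 alternative settings and Mylk under 6.

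Fhl2, a LIM-only co-regulator, Mycl, of the Myc family, and Cxcl1, a neutrophil chemokine, lay above Dynasore with BMP-2+Dynasore and below DMSO with BMP-2+DMSO on all arrays. Fhl2 had 8.87 and 9.12 with BMP-2+Dynasore and 8.61 and 8.73 with Dynasore, against 8.75 and 8.68 with BMP-2+DMSO and 9.80 and 9.69 with DMSO. Mycl had 7.44 and 8.05 with BMP-2+Dynasore and 6.79 and 7.09 with Dynasore, against 8.24 and 8.44 with BMP-2+DMSO and 9.37 and 9.38 with DMSO. Cxcl1 had 9.96 and 10.01 with BMP-2+Dynasore and 9.84 and 9.84 with Dynasore, against 9.06 and 10.13 with BMP-2+DMSO and 10.84 and 10.80 with DMSO. The upward steps with dynasore did not pass the threshold on their own (adjusted p = 0.43, 0.16 and 0.65 for Fhl2, Mycl and Cxcl1 in the 7-array fit with BMP-2+DMSO replicate 1), while the interactions did, at 1.32 and 1.39 for Fhl2, 1.94 and 1.74 for Mycl and 1.91 and 0.84 for Cxcl1.

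Cd82, a tetraspanin, shows how far the BMP-2+DMSO duplicates could part in a called gene. It had 11.76 and 12.03 with BMP-2+Dynasore and 12.02 and 12.17 with Dynasore, against 11.33 and 7.83 with BMP-2+DMSO and 12.69 and 12.93 with DMSO. Its interaction was 1.29 with BMP-2+DMSO replicate 1 (adjusted p = 0.016) and 4.78 with replicate 2 (adjusted p = 5.1e-08), and 3.04 (95% interval -0.30 to 6.37) over 8 arrays, an interval that includes 0. Adgre5, an adhesion receptor (1.07 and 4.86), and Scx, the tendon factor scleraxis (1.28 and 3.42), were similarly uneven. The other named genes called higher had interactions of 0.49 or more with each array. They included the cyclin gene Ccnd1 (1.30 and 1.16), the growth factor-binding protein gene Igfbp5 (1.05 and 0.65), the Ets factor gene Ets2 (1.505 and 0.62), and Popdc3, a Popeye domain gene of muscle (1.02 and 1.31). The remainder were Bnc2, Rbm38, Pald1, Akr1b8, AI467606, Medag, Stard13, Pdlim3, Lhfpl2 and Cilk1, besides 6 probes with no gene symbol and Chrng, Msc and Ndrg1, which come with their lists.

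Among muscle genes, 9 of 23 tested had the same sign with both arrays, 7 positive and 2 negative, and the list's median took opposite signs, 0.25 with replicate 1 and -0.06 with replicate 2, beside 0.02 and -0.19 over all tested probes. Chrng, the fetal subunit of the acetylcholine receptor, was the only call of this list. It measured 7.72 and 7.72 with BMP-2+Dynasore and 7.71 and 8.05 with Dynasore, against 7.33 and 8.48 with BMP-2+DMSO and 9.37 and 9.36 with DMSO. Dynasore alone and BMP-2 alone were both below DMSO, and the interaction was 1.88 with BMP-2+DMSO replicate 1 (adjusted p = 0.0079) and 0.73 with replicate 2 (adjusted p = 0.028). Tnnc1 and Mylpf, of the contractile apparatus, had 0.60 and 1.41 and 0.46 and 1.34. Musculin (Msc), a repressor of the muscle programme that stands on the myoblast marker list, was called higher as well (1.62 and 0.78), being below background on both BMP-2+DMSO arrays.

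In the Notch pathway 7 of 12 tested genes had the same sign, 1 negative (Hey1) and 6 positive, with Dtx4 called higher. Its ligand gene Dll1 had 6.59 and 6.69 with BMP-2+Dynasore and 6.25 and 6.48 with Dynasore, against 7.03 and 7.002 with BMP-2+DMSO and 7.66 and 8.04 with DMSO. The interaction of Dll1, 1.11 with BMP-2+DMSO replicate 1 (adjusted p = 0.14) and 1.13 with replicate 2 (adjusted p = 0.0088), missed the threshold with replicate 1. Notch3 had 0.77 and 3.501 with replicates 1 and 2, far apart. In the Wnt pathway 8 of 16 had the same sign (5 negative, 3 positive) and 0 were called. Its values included -1.03 and -2.04 for the inhibitor gene Nkd2, -0.59 and -1.08 for the inhibitor gene Wif1, 1.18 and 1.67 for the R-spondin receptor gene Lgr5 and 1.47 and 0.65 for the co-receptor gene Lrp4.

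Stress lists held genes with large differences between Dynasore and DMSO. Of 26 tested genes of the response to low oxygen, 15 had the same sign (8 negative, 7 positive), and Ndrg1, a stress-induced gene, was called higher. Ndrg1 had 14.56 and 14.60 with BMP-2+Dynasore and 14.92 and 15.04 with Dynasore, against 10.52 and 9.39 with BMP-2+DMSO and 11.73 and 11.91 with DMSO. Dynasore arrays lay 3.16 above DMSO, and the response to BMP-2 was -0.40 there, with an interaction of 0.89 with BMP-2+DMSO replicate 1 (adjusted p = 0.028) and 2.03 with replicate 2 (adjusted p = 3.1e-06). Vegfa, the vascular growth factor, had 12.04 and 12.18 with BMP-2+Dynasore and 12.22 and 12.34 with Dynasore, against 9.81 and 10.43 with BMP-2+DMSO and 9.19 and 8.95 with DMSO. Both dynasore groups lay above both DMSO groups, BMP-2 in DMSO raised it with each array, and its interaction was -0.91 with BMP-2+DMSO replicate 1 (adjusted p = 0.061) and -1.53 with replicate 2 (adjusted p = 1.2e-04). In the list of ATF4 and endoplasmic reticulum stress 20 of 32 tested genes had the same sign (14 negative, 6 positive), with a median of -0.09 with replicate 1 and -0.52 with replicate 2 and Stc2 the single call. Slc6a9, a glycine transporter, showed 12.45 and 12.38 with BMP-2+Dynasore and 12.59 and 12.67 with Dynasore, against 9.27 and 10.73 with BMP-2+DMSO and 8.79 and 8.94 with DMSO, and an interaction of -0.62 with BMP-2+DMSO replicate 1 (adjusted p = 0.17) and -2.08 with replicate 2 (adjusted p = 5.1e-06). Cebpb, a leucine zipper factor, lay just outside the threshold with -0.73 and -0.60.

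The response with dynasore shares no array with the response with DMSO, so probes can be chosen by one and read in the other. The arrays were not wholly free of each other, as deviations of same-numbered arrays correlated at r = 0.5 between BMP-2+Dynasore and BMP-2+DMSO. Of 140 probes that BMP-2 raised in DMSO with each array (1.37% of those tested), 127 had a response above 0 with dynasore (90.7%), beside 53.2% of all tested probes. In 106 the BMP-2+Dynasore arrays lay wholly above the Dynasore arrays (2439 of all 10246), and 35 were called higher with dynasore in the 7-array fit. The median response was 0.40 with dynasore, against 1.09 and 1.71 with DMSO on replicates 1 and 2. Choosing probes by their DMSO response can enlarge the DMSO medians. Through the correlation of r = 0.5 the choice may also reach the values with dynasore, to an extent that was not tested. Part of this gap, and of that for the lowered probes below, may come from the choice. Of the 35 probes called in both conditions, 4 had an interaction called lower with each array, those of Hey1, Avpr1a, Rgs4 and Krt14. Of 145 probes lowered in DMSO (1.42%), 28 had a response above 0 with dynasore (19.3%), with a median of -0.26 with dynasore and -1.11 and -1.32 with DMSO, and 15 were called lower with dynasore (23 of all tested, 0.224%). All 22 negative interactions called with each array lay among the 140 raised probes and all 41 positive ones among the 145 lowered ones, but these sets use the same BMP-2+DMSO and DMSO arrays as the interaction. Over 8 arrays BMP-2 raised 2 probes with dynasore (Id3 and Hey1, 0.0195%) and lowered 0 (0%), and it raised 16 (0.156%) and lowered 5 (0.0488%) with DMSO.

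**Figure D5:**
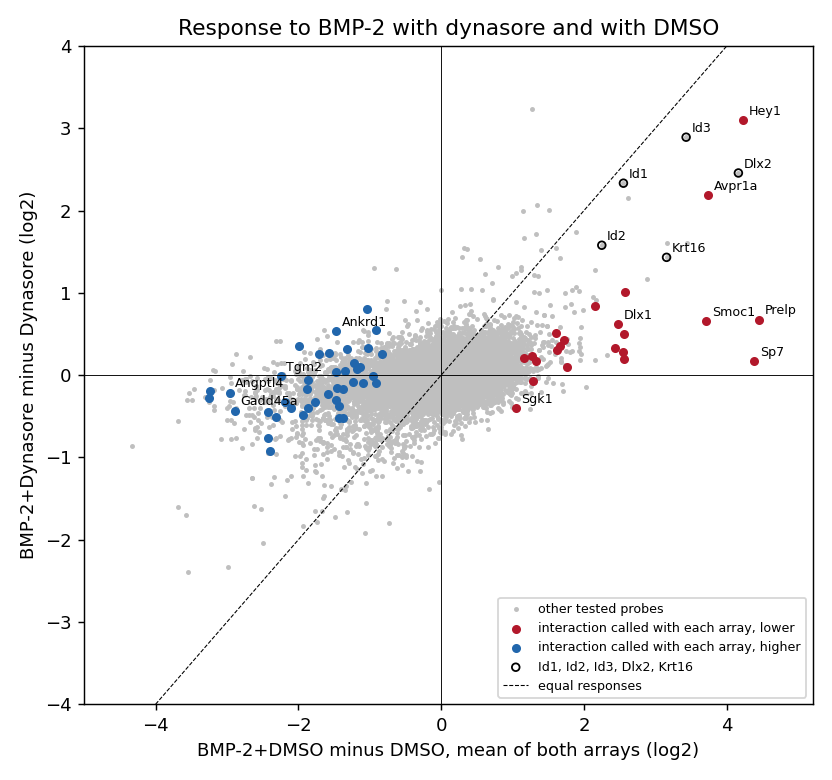
Response to BMP-2 with dynasore (vertical axis, log2) against the response with DMSO as the mean of both arrays (horizontal axis, log2) for 10246 tested probes, with the dashed line at equal responses. The red probes lie right of the line with DMSO responses up to about that of Prelp and most dynasore responses near 0, and the blue probes lie left of it with dynasore responses between -0.92 and 0.80.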

How the data were processed

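RNA of 8 C2C12 samples had been hybridized to Illumina MouseRef-8 BeadChips. The authors deposited intensity values per probe on a linear scale, after BeadStudio 3.0 had applied its rank invariant normalization and a background had been subtracted. A second table has 8 numbered sample columns that no label maps and was not used.

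They were then processed with limma 3.58.1 (R 4.3.3) by normexp correction with an offset of 16, quantile normalization and log2. The background limit of each array lay 1.645 SD above the mode of dim probes. Of 18138 probes, 10246 lay above it on at least 2 arrays and were tested, 6305 on all 8. Symbols came from the platform annotation, updated through RefSeq (16874 matched, 1252 probes without symbol). Signals of different probes were added only in the marker sums, and compared only to choose the brightest probe of a gene for the lists. The precision is limited by the small number of arrays.

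Groups were fitted without covariates (lmFit, eBayes with trend and robust, Benjamini-Hochberg over tested probes). The 8-array fit has 4 residual degrees of freedom, each 7-array fit 3, its lone BMP-2+DMSO array being assumed to vary like the other groups. The BMP-2+DMSO duplicates correlated at 0.775 and the other duplicates at 0.978 to 0.995, so that this assumption was not met. The adjusted p of a 7-array fit leaves out the distance between the BMP-2+DMSO duplicates. The study's methods also kept 1 array of that group in their significance test. Bounds on folds raise values under background to the limit. The fits were tested on simulated data whose noise came from the groups other than BMP-2+DMSO. The simulation therefore did not hold the distance between the BMP-2+DMSO duplicates.

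Genes were named if the study names them, as the 15 largest negative and positive interactions called with each array, as calls over 8 arrays, or as up to 4 members of a list with the largest change. Other calls are named for completeness, after their values were seen. Members and lists were chosen with earlier results of these data known. Where a gene had several probes, the brightest stood for it in lists. Alternatives changed the normalization, offset, filter and variance model, added a replicate block and left out each array. Raising dim values to the background limit, and calling the response in DMSO with each array, were chosen after seeing the data. Promoter windows came from RefSeq (GRCm38.p6).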

Additional observations from a re-analysis of the deposited data

Results flagged for a closer look

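The effect of BMP-2 differed between the dynasore and DMSO conditions, by the interaction test with each BMP-2+DMSO array, for 41 probes higher and 22 lower. With all 8 arrays in 1 fit 0 of 10246 probes passed, and the fits with each array share 6 arrays. In 11 named genes every array moved one way with dynasore and the other way with DMSO. Only the named genes, many of them picked for a large interaction, were searched for this. No share over all tested probes can therefore be set beside it. For Ankrd1 (interaction over 8 arrays 2.01), Mycl (1.84), Cxcl1 (1.37), Fhl2 (1.35) and Sgk1 (-1.45) the difference also passed the test with each array. For Vegfa (-1.22), Slc6a9 (-1.35), Dll1 (1.12), Mepe (-1.13), Ogn (-0.72) and Csf3 (-0.72) it did not pass with replicate 1. Mepe was above background on the BMP-2+DMSO arrays only, and Csf3 on the Dynasore arrays only. Over 8 arrays the response with dynasore passed the threshold for Id3 and Hey1 only, and so for none of these genes. The dynasore arrays of Ogn nearly touched, at 9.442 with BMP-2+Dynasore and 9.453 with Dynasore. No group had the 4 arrays needed to look for outlying arrays gene by gene.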

How the results depend on the processing

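Of the 63 probes called with each array, Ankrd1 and Cxcl1 were called under 15 of 15 alternatives, and Angptl4, Cdca7, Cxcl12, Foxq1, Gadd45a, Prelp and Tgm2 under 14. Sp7 and Ccn2 were called under 13. These and Ets2 and Pik3r3, under 12, were the 13 probes called under at least 12. A further 27 were called under 8 to 10, among them Hey1, Smoc1 and Mest under 8, and 23 under 7 or fewer, among them Vegfc under 7, Avpr1a and Mylk under 6, Crabp2, Dtx4, Ppl and Rgs4 under 5 and Rbm38 under 3. Over 17 settings the 33 named genes that were called gave 396 results on the same side of the threshold and 156 that no longer passed. The settings without BMP-2+DMSO replicate 1 and without BMP-2+DMSO replicate 2 are the fits that defined the calls. Their part of the 396 was therefore fixed in advance. Whether equal replicate numbers mark paired samples was not settled. Deviations of same-numbered arrays correlated at r = 0.5 between BMP-2+Dynasore and BMP-2+DMSO, which thus shared part of their deviation, and at -0.276 to 0.004 otherwise. A replicate block left 22 probes higher among the calls with each array (38 in all, 37 of them shared), 0 rises with dynasore and, with DMSO, 6 rises and 0 falls.

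The authors' values without further correction gave 70 interactions higher with each array (97 in all, 47 shared), 6 rises and 1 fall with dynasore, and 31 rises and 26 falls with DMSO. They put the median interaction over all probes at -0.26 (-0.07 as processed here), with Id1 at 0.0706 and Mymk at -0.0027, of the opposite sign. Arrays scaled to equal medians (median 0.13) gave 3400 positive same-sign probes, 10 interactions called lower (56 in all, 45 shared), 0 rises with dynasore and 13 falls with DMSO, with Bglap2 at 0.18 and Zbtb2 at 0.28. Same-sign probes numbered 4352 positive and 5461 negative without a filter, and 1108 and 1588 among probes above background on all arrays, where 40 were called lower. An ordinary linear model called 1 interaction over 8 arrays, 2 rises and 1 fall with DMSO, and 3 higher and 0 lower with each array. Moderation without trend and robust weighting called 7 higher and 4 lower with each array.

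When single arrays were left out, calls of the 8-array interaction ranged over 0 to 2378 higher and 0 to 3372 lower, the upper ends being without BMP-2+DMSO replicate 1. Rises with dynasore ranged over 0 to 67 and falls over 0 to 23, rises with DMSO over 0 to 4241 and falls over 0 to 2877. Same-sign probes were 2047 to 2228 positive and 2269 to 2930 negative, and calls with each array 7 to 205 higher and 7 to 153 lower. Id1 stood at 0.23 without BMP-2+DMSO replicate 1 and at -0.67 without replicate 2, and Bglap2 at -0.62 and at 0.20. The cause of these shifts was not tested. The background of BMP-2+DMSO replicate 2 limits what can be read of genes near it.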

Other observations

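Other gene groups had few calls with each array. Of 30 tested genes of endocytosis and the early endosome, 11 had the same sign (6 negative, 5 positive) and 0 were called, with a median interaction of -0.01. Of 18 tested sterol synthesis genes 7 had the same sign (2 negative, 5 positive), of 21 NRF2 targets 8 (5 and 3), of 17 immediate early factors 9 (5 and 4), and of 29 ribosomal protein and tubulin genes 16 (8 and 8), with 0 called in each list. Of 22 cell cycle genes 11 had the same sign (5 and 6), and 1 was called, the cyclin gene Ccnd1. The chemokine and cytokine list had 6 of 13 (4 negative, 2 positive) and 2 calls, Cxcl12 and Cxcl1, both higher. The marker lists of other cell types had 1 tested macrophage gene of 8, 1 endothelial gene of 8, 3 adipocyte genes of 8 and 4 chondrocyte genes of 9, with 0 called in each.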
